A study of Mus musculus with 6 samples.

Results

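The 43 genes described here encode enzymes and complex subunits that write, read or remove DNA methylation and histone marks, or that move nucleosomes. They were chosen by name: every non-control probe whose gene name was among the 43 was taken, which gave 62 of 39429 probes and 43 of 31791 gene names on the array. The rule used no measured value. The groups followed a transplantation series in mice. Fetal liver cells that were wild-type (WT) or lacked both alleles of the gene for p190-B, Arhgap5, were given with competitor marrow to irradiated congenic hosts, and marrow of those hosts was passed to secondary recipients (2T). Haematopoietic stem cells (HSC) were then sorted from 2T marrow as lineage-negative cells positive for c-Kit, Sca-1 and CD150 and negative for CD48. The p190-B line was on a C57BL/6J background, and the WT donors were littermates. The study states that the cells came from independent mice of each group in repeated isolations, and the labels do not say which mice or isolation an array holds. No sort on the donor marker is stated for them, so that cells of the competitor marrow and of the host may be among those measured. RNA was amplified as cDNA, labelled with Cy3 and hybridised to 3 arrays of 2T-WT cells and 3 arrays of 2T-p190-B-/- cells, and the comparison asks which transcripts of these genes differed between the genotypes after serial transplantation.

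DNA methylation is placed by the Dnmt enzymes, kept through replication with the help of Uhrf1, and oxidised by the Tet enzymes, while Polycomb complexes, histone methyltransferases, demethylases, acetyltransferases and deacetylases set the marks on histone tails. Loss of several of these regulators, among them Dnmt3a, Tet2, Asxl1 and Bmi1, is known to change how long HSC self-renew in mice. Some, such as Dnmt3a, Tet2 and Asxl1, are also recurrently mutated in clonal haematopoiesis.

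Each value below is the log2 of a probe's processed signal relative to the 75th percentile of its array, and values are listed in the order of replicates 1, 2 and 3. Differences are 2T-p190-B-/- minus 2T-WT on that log2 scale, given with limma's standard error (SE). Where a gene has several probes, they are numbered by their place along the chromosome, and the gene is represented in counts by its brightest tested probe. Before scaling, the 75th percentile was 125, 227 and 53.9 intensity units in 2T-WT and 385, 321 and 252 in 2T-p190-B-/-, so every 2T-p190-B-/- array was brighter. The arrays lay on 3 slides: slide 1 held 2T-WT 1, slide 2 held 2T-WT 2 and 3 and 2T-p190-B-/- 1 and 2, and slide 3 held 2T-p190-B-/- 3. Within-slide values below are therefore those of slide 2.

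The Arhgap5 probe (mm9 chr12:53668087-53668146) read -4.74, -5.55 and -4.44 in 2T-WT and -5.46, -2.71 and -6.01 in 2T-p190-B-/-. It was well above background on 2T-p190-B-/- 2 alone, so the genotype could not be checked with it. Of the genes that define the sort, Ly6a (Sca-1) was above background on 6 arrays and Kit on 5, whereas Slamf1 (CD150) was above background on 0 arrays and Cd48, whose protein the sort selects against, on all 6. Procr, a further HSC marker, was above background on 0 arrays as well. Of 11 HSC and sorting markers 8 were tested, 5 higher and 3 lower in 2T-p190-B-/-. The array 2T-WT 3 stood apart in other markers: Cd79a, a B lymphocyte receptor chain, read 9.47 there and between -4.89 and -1.65 on the other arrays, and the proliferation marker Mki67 read 6.87 there and at most 2.59 elsewhere. Cycling genes were not uniformly high on that array: Mcm5 and Tyms were highest there as well, but Top2a and Mcm6, at -4.34 and -3.37, were not above background there.

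Detection divided the 43 genes. The probes of 12 genes were well above background on no array: Ezh2 and Suz12 of Polycomb repressive complex 2 (PRC2), Cbx2 and Cbx8 of Polycomb repressive complex 1 (PRC1), the Polycomb-associated Asxl1, the methyltransferases Setdb1 and Dot1l, the deacetylases Hdac2, Hdac3, Sirt1 and Sirt3, and the acetyltransferase Ep300. Bmi1, Rnf2 and Satb1 were above background on 2 arrays or fewer. These 15 genes were not tested, and no change can be read from their undetected probes. A further Bmi1 probe, left out as non-uniform, is described below. The other 28 genes had 42 probes that a minimum of 3 of 6 arrays showed above background, the condition for a test, and 17 genes had a probe above background on all 6. Of the 62 probes, 22.6% were above background on no array, against 16.8% of all probes, and 30.6% were above it on all 6, against 34.9%.

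**Figure D1:**
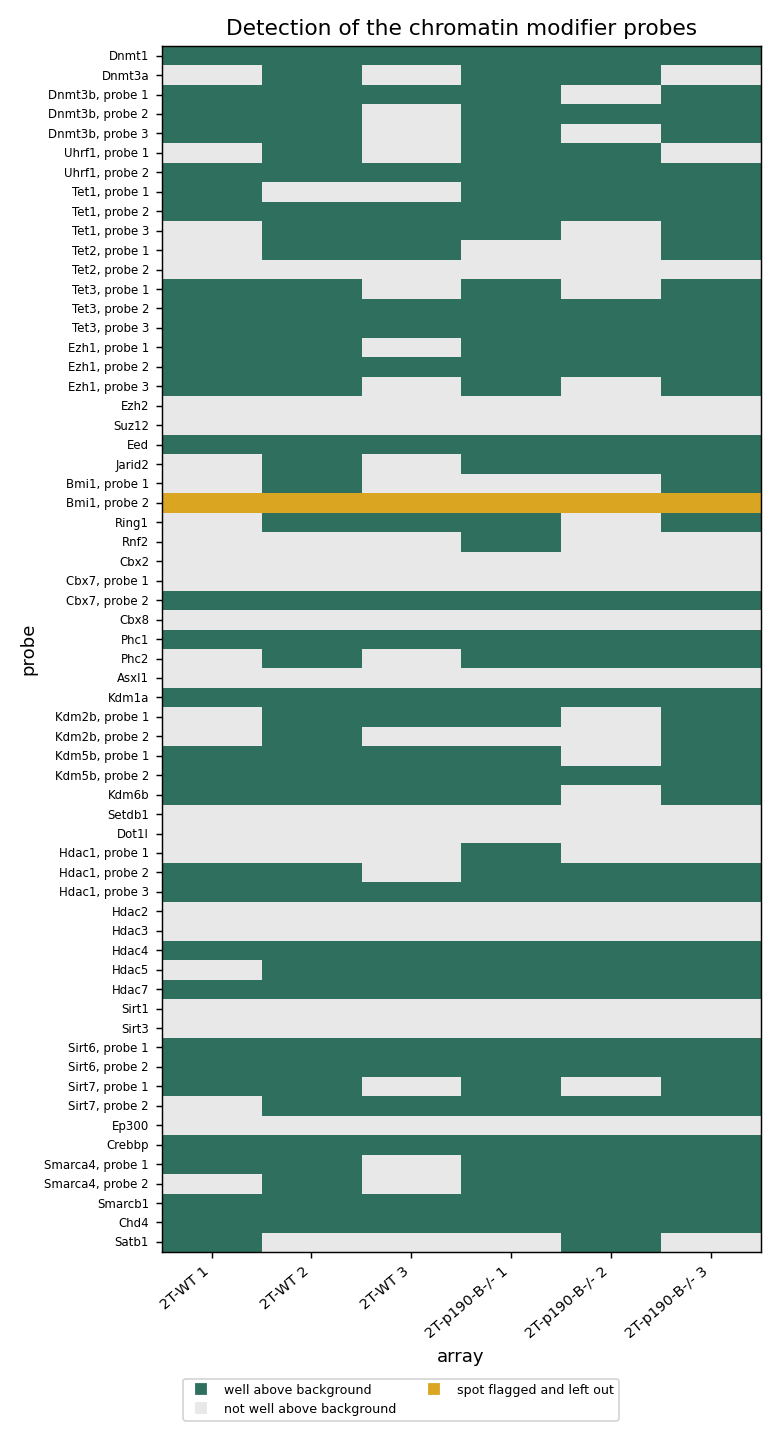
Detection of the 62 chromatin modifier probes, with a line per probe and a column per array; green marks a spot well above background, grey one that was not, and yellow a spot left out as non-uniform. The 14 probes grey in every column include Ezh2, Suz12, Asxl1, Hdac2, Sirt1 and Ep300, and 19 probes are green in every column.

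Probes above background on no array still carry a processed signal, and this signal differed between the groups. Over all 6619 such probes the median difference was -0.94, and over the 14 chromatin modifier probes among them it was -0.92. Their median in 2T-WT was -4.62, -6.12 and -4.40, and in 2T-p190-B-/- it was -6.96, -4.96 and -6.02, which follows the same floor over all undetected probes of -4.60, -6.13 and -4.40 against -6.98, -5.06 and -5.99. The median of the undetected chromatin modifier probes thus follows that of undetected probes of any gene, while single probes lie above or below it. Base composition of the probes went with detection as well. Among the 24 chromatin modifier probes with a GC content over 30 and up to 36 percent, 10 were above background on no array and 2 on all 6, while among the 14 probes over 45 and up to 55 percent 0 were undetected and 8 were above background on all 6. Over all probes in these ranges, 34.4% and 1.35% were above background on no array, and 13.9% and 68.2% on all 6. Whether the undetected genes are transcribed in these cells was not tested.

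No chromatin modifier probe passed limma's test at an adjusted p under 0.05 (0 of 42), and neither did any of the 25159 probes tested (0.0%). The methods' t-test after Benjamini-Hochberg adjustment also gave 0 in both. The smallest adjusted p from limma was 0.637 among the chromatin modifier probes and 0.0721 among all probes. At an unadjusted limma p under 0.05 there were 3 of the 42 probes, Tet1 probe 3, Tet3 probe 2 and Smarca4 probe 2, against 6.57% of all probes. This count was 0 without 2T-p190-B-/- 1 (4.45% of all probes), 1 without 2T-WT 3 (5.98%) or 2T-p190-B-/- 2 (4.25%), and 8 after normexp background correction (14.4%). Smarca4 probe 2, higher in 2T-p190-B-/-, was above background on 1 2T-WT array and all 3 2T-p190-B-/- arrays. It thus entered the tests through the group where it is high, and nothing is drawn from its p. The threshold of the methods, p of 0.05 or less in the methods' t-test with a 2-fold or larger difference, took 1 probe as higher, Tet3 probe 3, against 2.31% of all probes, and 3 as lower, Uhrf1 probe 2, Tet1 probe 3 and Tet3 probe 2, against 4.1%. Those 4, beside 6.41% of all probes, fell to 1 without 2T-p190-B-/- 1 (4.08%) or 2T-p190-B-/- 2 (3.98%) and to 2 without 2T-WT 1 (6.27%) or 2T-WT 3 (4.98%), and were 10 after normexp correction (11.98%). The values of both groups did not overlap for 8 of the 42 probes, where 16.3% of all probes behaved so, and for 5 of the 28 tested genes, where 16.6% of all genes did. That gene count was 5 without 2T-WT 3 or 2T-p190-B-/- 1 and 6 without 2T-p190-B-/- 2, beside 24.9%, 23.6% and 23.6% of all genes. It was 8 without 2T-WT 1, 11 without 2T-WT 2 and 13 without 2T-p190-B-/- 3, beside 28.4%, 32.2% and 33.3% of all genes, 17 within slide 2, beside 46.6%, and 9 after normexp correction, beside 23.2%. In bulk samples, fewer cells of a type and less RNA per cell cannot be told apart in any of these values.

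Of the 28 tested genes 17 had a lower mean in 2T-p190-B-/- and 11 a higher one, against 61.5% of all genes lower. Their median difference was -0.30, and that of the 21704 genes tested was -0.35. Relative to the median of all genes 14 of the 28 were lower, where 50% of all genes are by construction. Within slide 2 the median difference of the 28 genes was -0.77 and that of all genes -0.50, and with no filter, over all 43 genes, they were -0.66 and -0.52. Without 2T-WT 1 they were -0.68 and -0.39, without 2T-p190-B-/- 1 -0.49 and -0.36, without 2T-p190-B-/- 2 -0.46 and -0.34, and without 2T-p190-B-/- 3 -0.61 and -0.45. The order was the other way without 2T-WT 2, at -0.21 and -0.38, and without 2T-WT 3, at -0.24 and -0.26. Other scalings moved both, to -0.16 and -0.11 after quantile normalization, -0.35 and -0.44 after normexp correction and -0.18 and -0.23 in the authors' values, which raise a difference by 0.12 in the median. Of the 42 probes 27 kept their direction with each array left out in turn (59.7% of all probes), and 30 kept it under all 3 of those scalings (71.6%). The median SE of a probe's difference was 0.83 and the median 95% interval reached 1.91 to either side, so that differences of several fold lay within the intervals.

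**Figure D2:**
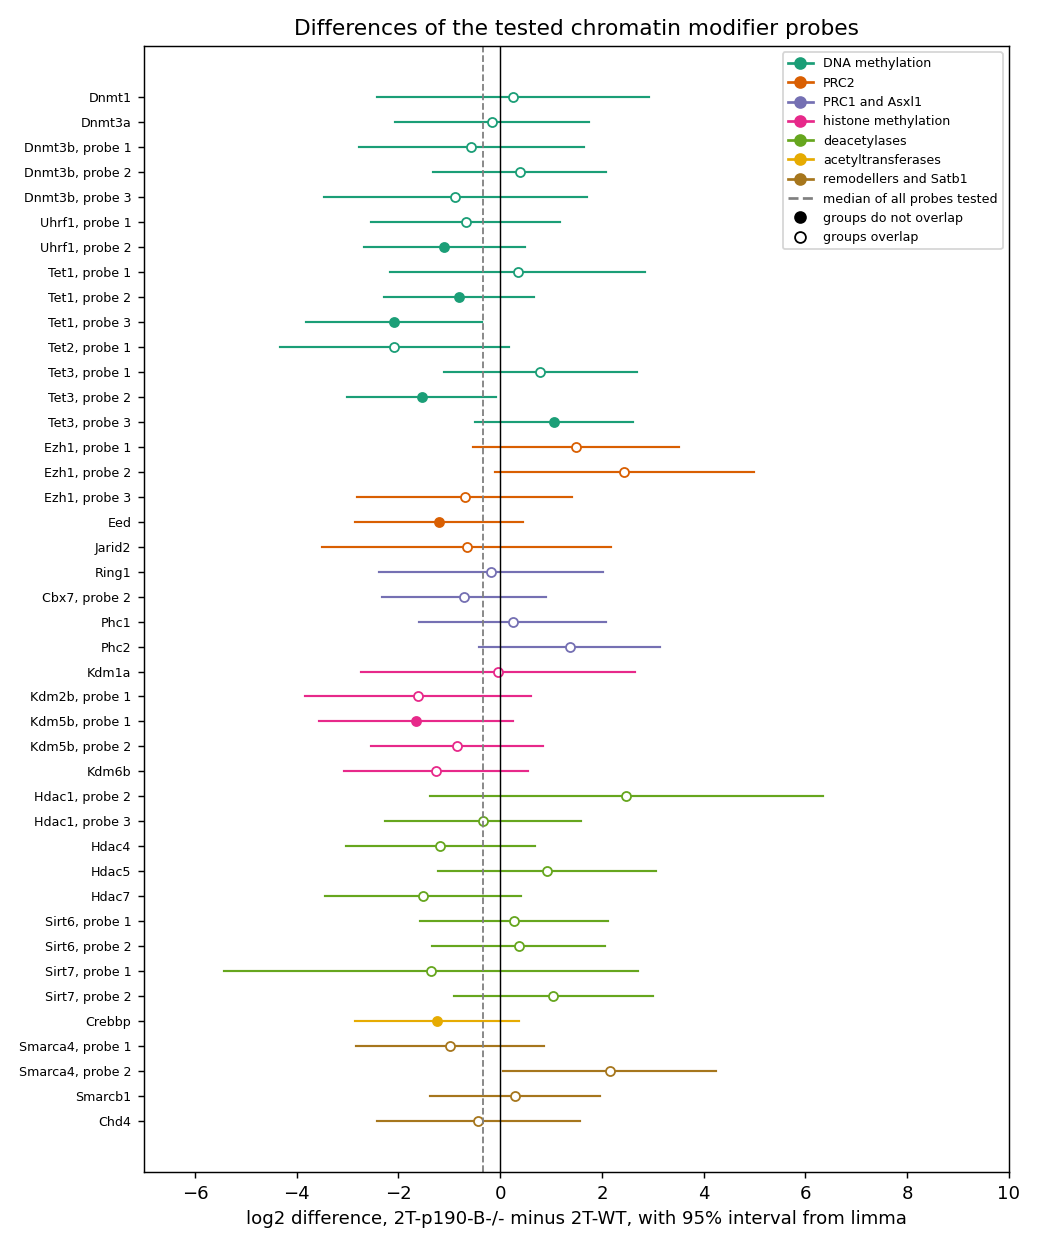
Differences of the 42 tested chromatin modifier probes on the log2 scale, 2T-p190-B-/- minus 2T-WT, coloured by role; points are limma estimates and bars 95% intervals (n = 3 and 3 arrays), filled where the values of the groups do not overlap, and the dashed line is the median of all probes tested. The points lie on both sides of that line in most roles, with 16 probes above 0 and 26 below it.

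The DNA methylation enzymes were the role in which every gene was tested, 7 of 7. Of these, 3 genes were higher and 4 lower, with a median difference of -0.16. With single arrays left out, the middle difference ranged from -0.70 (Dnmt3a, without 2T-p190-B-/- 2) to -0.08 (Dnmt1, without 2T-p190-B-/- 1). Dnmt1, which copies methylation onto the new strand, read 0.97, -1.99 and 0.67 in 2T-WT and 0.81, -1.86 and 1.46 in 2T-p190-B-/-. Both groups held a low array, the second of each, and they overlapped throughout. The difference was 0.25 ± 1.16 (SE, n = 3 and 3), and it turned to -0.69 without 2T-WT 2, -0.08 without 2T-p190-B-/- 1 and -0.41 without 2T-p190-B-/- 3. Dnmt3a, a de novo methyltransferase, read -4.48, -2.72 and -3.29 against -3.96, -2.56 and -4.44. These were dim spots, above background on 1 2T-WT and 2 2T-p190-B-/- arrays, and the groups overlapped. Its difference of -0.16 ± 0.83 turned to 0.09 after quantile normalization, 0.23 without 2T-WT 2 and 0.24 without 2T-p190-B-/- 3, and it was -1.13 after normexp correction.

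Dnmt3b, the second de novo methyltransferase, had 3 probes. The brightest, probe 2, read -0.50, -0.90 and -2.26 in 2T-WT and -1.10, -0.62 and -0.76 in 2T-p190-B-/-. The groups overlapped, with 2T-WT 3 the lowest and not above background. Its difference of 0.39 ± 0.74 turned to -0.30 after normexp correction and -0.13 without 2T-WT 3, and probes 1 and 3 differed by -0.57 and -0.88. Uhrf1, which brings Dnmt1 to hemimethylated sites, read 4.27, 3.23 and 4.42 at probe 2 in 2T-WT and 2.84, 2.73 and 3.06 in 2T-p190-B-/-. Every 2T-p190-B-/- array was below every 2T-WT array, though 2T-WT 2 lay close to the highest of them. The difference was -1.10 ± 0.68 (limma adjusted p = 0.637), between -1.47 and -0.87 with single arrays left out and -1.04 within slide 2, but -0.62 after quantile normalization and -0.11 after normexp correction. The dimmer probe 1 of Uhrf1 differed by -0.68 ± 0.81, but by -0.02 without 2T-p190-B-/- 3 and -0.12 within slide 2.

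The Tet enzymes, which oxidise methylcytosine as a first step of its removal, gave an uneven picture, because probes of the same gene differed in direction. Tet3 had 3 probes, all on the minus strand of mm9 chromosome 6. Their first 30 of 60 bases are shown because the direction of the gene depends on which of them is read. Probe 1 covers chr6:83318731-83318790, probe 2 chr6:83319720-83319779 and probe 3 chr6:83352743-83352802. Letters are in lower case where a probe holds no tandem repeat of 8 or more bases, which capitals would mark, and none of the 3 does.
Tet3 probe 1: ccctgaaaggtggacctgggttccaagaca
Tet3 probe 2: gccctccctcaaggtggagcctcagaacca
Tet3 probe 3: accaaggctgagaacccactcacaccaacc

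Tet3 probe 2 read -0.37, -0.59 and -0.47 in 2T-WT and -2.14, -2.18 and -1.74 in 2T-p190-B-/-. The groups lay clearly apart, with all 2T-p190-B-/- arrays low and little spread inside either group. Probe 3 read 1.46, 1.27 and 1.88 in 2T-WT and 2.23, 2.35 and 3.20 in 2T-p190-B-/-. Here too the groups did not overlap, but it was the 2T-p190-B-/- arrays that were high. The differences were -1.54 ± 0.64 for probe 2 and 1.05 ± 0.68 for probe 3 (limma adjusted p = 0.637 and 0.638), a span of 2.60 between them. Both kept their direction in quantile, normexp and authors' values, and within slide 2 they were -1.63 and 0.71. Because the groups did not overlap, neither leaving out an array nor slide 2 alone could turn these directions. Probe 1, which was above background on 4 arrays, differed by 0.79 ± 0.83, or -0.48 after normexp correction and 0.22 without 2T-p190-B-/- 1. A direction for Tet3 as a gene can therefore not be given, and which transcripts each probe binds was not tested.

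Tet1 also had 3 probes on the minus strand, of mm9 chromosome 10, and 2 of them were lower without overlap. Probe 1 covers chr10:62274448-62274507, probe 2 chr10:62276042-62276101 and probe 3 chr10:62301856-62301915, and their first 30 bases, shown for the same reason, also hold no tandem repeat to be set in capitals.
Tet1 probe 1: ctgtactcaaataacacacggcttctgttc
Tet1 probe 2: gaatctacagacttctgtcccctgcaggct
Tet1 probe 3: taatcacatcaacgccgaggtcaggaatgc

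At Tet1 probe 3 the 2T-WT arrays read -2.61, -0.80 and -1.11 and the 2T-p190-B-/- arrays -3.79, -3.77 and -3.21. All 2T-p190-B-/- arrays were lower, but the spots were dim and only 2 arrays of each group were above background. The brighter probe 2 read 1.04, 0.61 and 0.50 against -0.17, -0.0029 and -0.09, with all 6 arrays above background and again no overlap. The differences were -2.08 ± 0.75 for probe 3 and -0.80 ± 0.64 for probe 2 (limma adjusted p = 0.637 and 0.683), and -2.82 and -0.64 within slide 2. Neither turned under another scaling, though probe 2 was at -0.39 after normexp correction. As their groups did not overlap, leaving out an array or reading slide 2 alone could not turn them. Probe 1 differed by 0.34 ± 1.09, and by -0.70 after normexp correction, -0.80 without 2T-WT 2 and -0.17 without 2T-p190-B-/- 2. Tet2, the family member most often mutated in blood, read -3.08, -3.53 and -0.49 at probe 1 in 2T-WT and -5.14, -4.72 and -3.49 in 2T-p190-B-/-. The groups overlapped slightly, since 2T-p190-B-/- 3 lay just above 2T-WT 2, and 2T-WT 3 was far above the rest. The difference of -2.08 ± 0.98 (limma adjusted p = 0.637) rested on spots above background on 2 2T-WT arrays and 1 2T-p190-B-/- array, and was -1.14 without 2T-WT 3. The other Tet2 probe was above background on no array.

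**Figure D3:**
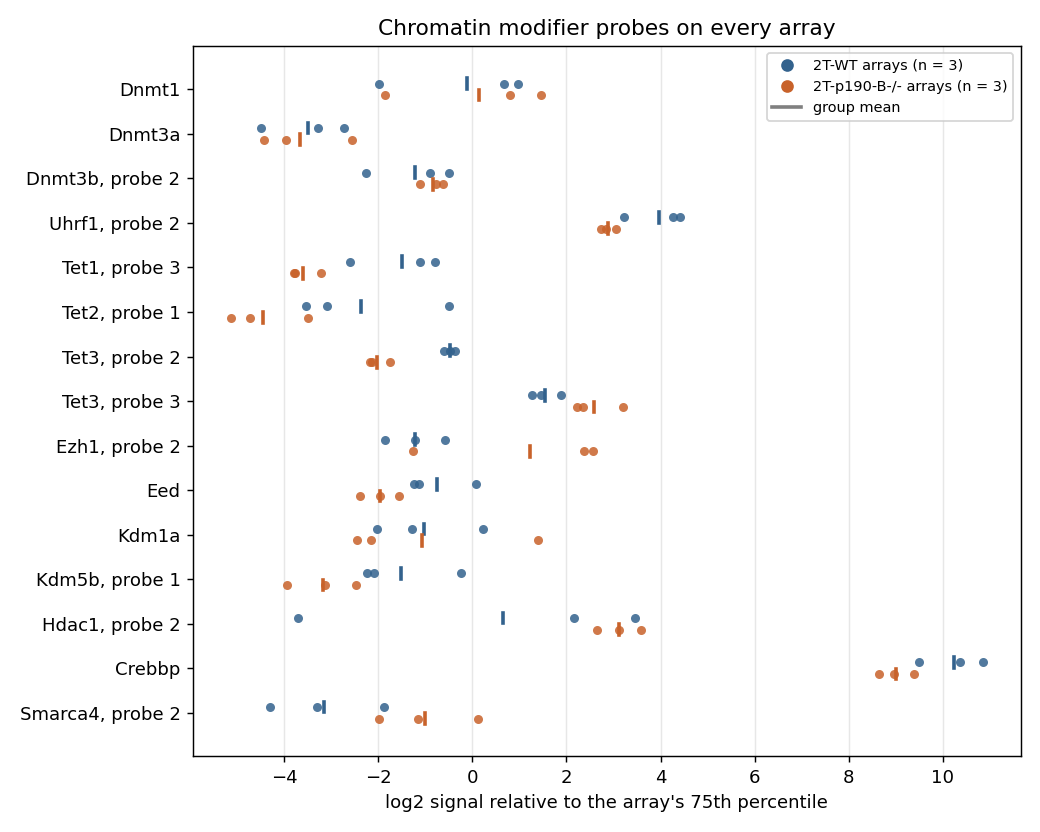
Log2 signal of 15 chromatin modifier probes on each of the 6 arrays, relative to the array's 75th percentile; blue points are 2T-WT arrays, orange points 2T-p190-B-/- arrays and vertical bars group means. Tet3 probes 2 and 3 separate the groups in opposite directions, Hdac1 probe 2 has 1 low 2T-WT array at -3.70, and Ezh1 probe 2 has 1 low 2T-p190-B-/- array at -1.26.

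PRC2 methylates histone H3 to repress genes, and 3 of its 5 listed genes were tested, 1 higher and 2 lower with a median difference of -0.66. Its catalytic subunits are Ezh2 and Ezh1, and the Ezh2 probe was above background on no array. It read -4.79, -6.25 and -4.47 in 2T-WT and -5.51, -5.15 and -6.03 in 2T-p190-B-/-, values that allow no comparison. Ezh1 probe 2 read -0.58, -1.86 and -1.22 in 2T-WT and 2.57, 2.37 and -1.26 in 2T-p190-B-/-. The first and second 2T-p190-B-/- arrays were high, whereas the third lay among the 2T-WT arrays, so the groups overlapped. The difference was 2.44 ± 1.11 (limma adjusted p = 0.637), 1.77 without 2T-p190-B-/- 1, 3.68 without 2T-p190-B-/- 3 and 4.01 within slide 2. Ezh1 probe 1 differed by 1.49 ± 0.88, or 0.75 without 2T-p190-B-/- 1 and 0.33 after normexp correction, and probe 3 differed by -0.70 ± 0.92, or 0.05 without 2T-WT 2. Those 3 Ezh1 probes lie within 2164 bases.

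Eed, the subunit that binds the mark PRC2 makes, read -1.12, -1.24 and 0.09 in 2T-WT and -2.39, -1.96 and -1.55 in 2T-p190-B-/-. All 2T-p190-B-/- arrays were lower, without overlap, and 2T-WT 3 was the highest. The difference of -1.21 ± 0.72 (limma adjusted p = 0.637) was -0.79 without 2T-WT 3 and -1.60 within slide 2, and it was between -1.19 and -1.06 under the other scalings. Jarid2, which helps recruit the complex, differed by -0.66 ± 1.23, and by 0.75 without 2T-WT 2, the 1 array on which it was bright. Suz12, the scaffold of the complex, was not above background on any array.

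PRC1 places ubiquitin on histone H2A, and of its listed genes together with Asxl1 4 of 9 were tested, 2 higher and 2 lower with a median of 0.03 and 0 without overlap. Bmi1, the PRC1 subunit most studied in HSC self-renewal, gave no usable comparison. Its probe 1 read -4.51, -2.27 and -4.46 in 2T-WT and -5.81, -5.14 and -2.06 in 2T-p190-B-/-. It was above background on 2T-WT 2 and 2T-p190-B-/- 3 alone. Its probe 2 was left out because its spot was marked as non-uniform on all 6 arrays. With outlier spots kept, an alternative chosen after seeing the data, that probe read -0.28, -0.02 and 1.93 against -1.58, -1.54 and -0.08, with 2T-p190-B-/- 3 between 2T-WT 1 and 2T-WT 2. The difference was then -1.61 ± 0.87 (limma adjusted p = 0.644). Rnf2, a catalytic ubiquitin ligase of PRC1, was above background on 2T-p190-B-/- 1 alone. Its paralogue Ring1 differed by -0.18 ± 0.95, which changed direction without 2T-WT 3 (0.43), 2T-p190-B-/- 2 (0.36) or 2T-p190-B-/- 3 (0.04).

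Cbx7, a reader of the PRC2 mark within PRC1, was the brightly measured member of this group at probe 2, above background on all arrays. It read 3.63, 3.39 and 3.99 in 2T-WT and 2.49, 2.61 and 3.78 in 2T-p190-B-/-. The groups overlapped, because 2T-p190-B-/- 3 was as high as the 2T-WT arrays. The difference was -0.71 ± 0.70, or 0.12 after normexp correction. Of the Polyhomeotic subunits, Phc1 differed by 0.25 ± 0.80, or -0.39 without 2T-p190-B-/- 2, and Phc2 by 1.37 ± 0.77, or -0.34 after normexp correction.

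Of the 6 listed genes for histone methylation 4 were tested, all demethylases, and all 4 were lower (61.5% of the genes tested on the whole array were), their median being -1.06, and 0 without overlap at the probe that represents the gene. Kdm1a, which removes methyl groups from lysine in co-repressor complexes, read -2.02, -1.27 and 0.22 in 2T-WT and -2.16, -2.44 and 1.41 in 2T-p190-B-/-. The third array of each group was high and the groups overlapped throughout. Its difference of -0.04 ± 1.17 had no settled direction: it was 0.58 without 2T-WT 3, 0.51 without 2T-p190-B-/- 1, 0.65 without 2T-p190-B-/- 2 and -1.77 within slide 2. Kdm5b, a demethylase of a mark of active promoters, read -2.09, -2.23 and -0.24 at probe 1 in 2T-WT and -3.13, -3.94 and -2.47 in 2T-p190-B-/-. The groups did not overlap, although 2T-WT 2 and 2T-p190-B-/- 3 were close and 2T-p190-B-/- 2 was not above background. The difference was -1.66 ± 0.83 (limma adjusted p = 0.637), -1.02 without 2T-WT 3 and -2.30 within slide 2, and the brighter probe 2 differed by -0.85 ± 0.74 with overlap, or -0.50 without 2T-p190-B-/- 1. Kdm2b differed by -1.61 ± 0.97 and Kdm6b, which removes the PRC2 mark, by -1.27 ± 0.79. Without 2T-p190-B-/- 2 these were -1.06 and -0.74. The directions of Kdm2b, Kdm5b and Kdm6b held under the other scalings and without any single array. For Kdm5b probe 1, without overlap, leaving out an array could not turn it.

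Deacetylases take acetyl groups off histones and other proteins, and 6 of the 10 listed were tested, 3 higher and 3 lower with a median of -0.45 and 0 without overlap. That median has no settled sign: it lies between -1.17 (Hdac4) and 0.27 (Sirt6), and without 2T-WT 2 between -0.21 (Sirt7) and 0.36 (Sirt6). Hdac1, a core enzyme of several co-repressor complexes, read 2.16, 3.46 and -3.70 at probe 2 in 2T-WT and 2.66, 3.58 and 3.13 in 2T-p190-B-/-. A single array, 2T-WT 3, lay far below all others, which overlapped. The difference of 2.48 ± 1.68 was 0.31 without 2T-WT 3. On that same array probe 3 of Hdac1 had its highest value, 3.34, while the other 2T-WT arrays read 0.63 and 1.59 and the 2T-p190-B-/- arrays 1.50, 1.53 and 1.51. Probe 3 differed by -0.34 ± 0.84, which turned to 0.40 without 2T-WT 3 and 0.08 after normexp correction, and the 2 probes lie within 249 bases.

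Among the other deacetylases, Hdac4 differed by -1.17 ± 0.81, Hdac5 by 0.93 ± 0.93 and Hdac7 by -1.52 ± 0.84, all with overlapping groups and 1 direction under every scaling and without any single array. Their size was less steady: Hdac5 was at 0.12 without 2T-WT 1 and 0.24 after normexp correction, Hdac4 at -0.51 and Hdac7 at -0.92 without 2T-WT 3. The NAD-dependent deacetylase Sirt6 had probes that differed by 0.27 ± 0.80, or -0.32 without 2T-WT 3, and by 0.36 ± 0.74, or 0.04 without 2T-WT 2. Those of Sirt7 differed by -1.36 ± 1.77 and 1.04 ± 0.85. The first was -0.11 without 2T-p190-B-/- 2, -0.21 without 2T-WT 2 and -3.37 without 2T-p190-B-/- 3, and the second was -0.18 after normexp correction, 0.31 without 2T-p190-B-/- 3 and 0.06 within slide 2. Sirt1, often studied in stem cell stress and ageing, read -4.43, -6.28 and -4.49 in 2T-WT and -6.12, -5.10 and -6.06 in 2T-p190-B-/-. It was not well above background on any array.

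Crebbp and Ep300 are paired acetyltransferases and co-activators, of which Crebbp alone was detected. Crebbp read 10.37, 9.50 and 10.85 in 2T-WT and 8.65, 8.96 and 9.38 in 2T-p190-B-/-. All 2T-p190-B-/- arrays were lower, without overlap, though 2T-WT 2 was close to 2T-p190-B-/- 3. The difference was -1.25 ± 0.70 (limma adjusted p = 0.637) and -1.37 within slide 2, but 0.12 after quantile normalization and -0.36 after normexp correction. Hdac7, the other very bright probe of these genes, read 10.43, 8.94 and 11.49 against 8.50, 8.51 and 9.30. Its groups overlapped, since 2T-WT 2 was below 2T-p190-B-/- 3. The Hdac7 difference was -0.17 after quantile normalization and -0.51 after normexp correction.

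Both very bright probes carry a tandem repeat, and a stretch of 30 of their 60 bases is shown with the repeat in capitals. The Crebbp stretch is bases 12 to 41 of the probe at mm9 chr16:4084710-4084769 and holds 6 copies of a unit of 3 bases, and the Hdac7 stretch is bases 13 to 42 of the probe at chr15:97623208-97623267 and holds 4 copies of a unit of 2 bases. Both probes are on the minus strand.
Crebbp: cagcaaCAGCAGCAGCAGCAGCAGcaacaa
Hdac7: atttgtgtgtaTGTGTGTGtatgagtgcgt

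Such repeats occurred on the whole array with the same pattern. Of 1908 probes with a tandem repeat of 8 or more bases 1577 were tested, with a median difference of -1.04 and 82.1% lower, and of 403 tested probes with 12 or more bases 96.3% were lower, with a median of -1.29. Brightness went with the difference too, with or without a repeat. Among the probes with a mean log2 signal of 6 or more, the 384 with a repeat of 8 or more bases had a median of -1.35 and the 353 without had -1.16, with 99.7% and 96.0% lower. All 737 probes of that brightness had a median of -1.27, with an interquartile range from -1.45 to -1.03 that holds the Crebbp difference, while Hdac7 lay just below it. After quantile normalization their median was 0.05. For the 1707 probes with a mean between 3 and 6, where Uhrf1 probe 2 and Cbx7 lie, the median was -0.66, and for the 7282 probes between -1 and 1 it was -0.15. The 2493 probes with a mean under -3, where Dnmt3a and Tet2 probe 1 lie, had a median of -0.58 with 68.2% lower. The lower values of Crebbp and Hdac7 are thus those of nearly all very bright probes on these arrays, and what sets them was not tested.

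**Figure D4:**
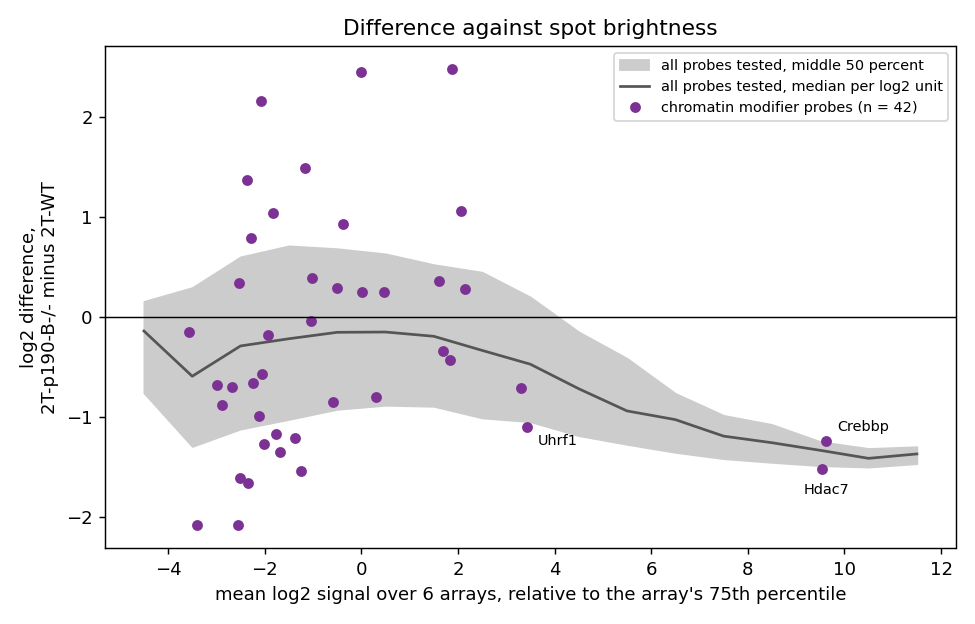
Log2 difference, 2T-p190-B-/- minus 2T-WT, against the mean log2 signal over the 6 arrays; purple points are the 42 tested chromatin modifier probes, and the grey line and band are the median and the middle 50 percent of all probes tested, per log2 unit of signal. The median is -0.59 at a signal of -4 to -3, rises to -0.15 between -1 and 1 and falls to -1.41 at 10 to 11, and Crebbp and Hdac7 lie near it, whereas the points spread widely on both sides at low signal.

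Remodellers use ATP to move nucleosomes, and of these together with the chromatin organiser Satb1 3 of 4 genes were tested, 2 higher and 1 lower with a median of 0.29 and 0 without overlap. Smarca4, an ATPase of the SWI/SNF complex, read -3.30, -1.87 and -4.31 at probe 2 in 2T-WT and -1.16, -1.98 and 0.13 in 2T-p190-B-/-. The 2T-p190-B-/- arrays were mostly high, but 2T-p190-B-/- 2 lay just below 2T-WT 2, the only 2T-WT array above background. All 3 2T-p190-B-/- arrays were above background, so the probe passed the filter through the group where it is high. The difference of 2.15 ± 0.91 (limma adjusted p = 0.637) became -0.0058 after normexp correction, and it was 1.58 without 2T-WT 3 and 1.52 within slide 2. Probe 1 of Smarca4 differed by -0.99 ± 0.80, the other way, but by -0.32 without 2T-WT 1 and -0.40 within slide 2. Smarcb1, a core subunit of the same complex, differed by 0.29 ± 0.72, or -0.05 without 2T-p190-B-/- 1, and Chd4, the ATPase of the NuRD complex, by -0.43 ± 0.86, or 0.03 after normexp correction and 0.12 without 2T-p190-B-/- 2. Satb1 read -2.04, -6.25 and -4.45 in 2T-WT and -5.53, 1.48 and -6.02 in 2T-p190-B-/-. It was above background on 2T-WT 1 and 2T-p190-B-/- 2 alone, and each group held 1 high array.

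Probes of the same gene often differed in direction on the whole array. Of the 10 genes with several tested probes, 7 had probes in both directions: Dnmt3b, Tet1, Tet3, Ezh1, Hdac1, Sirt7 and Smarca4. With 2 probes that was 3 of 6 genes, against 42.2% of all genes with 2 tested probes, and with 3 probes 4 of 4, against 67.6%. Several of the opposing probes had no settled direction with 1 array left out: Dnmt3b probe 1 was at 0.19 without 2T-p190-B-/- 2 and its probe 3 at 0.38 without 2T-WT 1, and Tet1 probe 1, Hdac1 probe 3 and Ezh1 probe 3 turned as given above. The span between the lowest and the highest difference of a gene was 3.14 in Ezh1, 3.14 in Smarca4, 2.82 in Hdac1 and 2.60 in Tet3, and 0.09 in Sirt6. Probes of Uhrf1, Kdm5b and Sirt6 shared a direction, with that of 1 Sirt6 probe turning without 2T-WT 3 and Uhrf1 probe 1 near 0 without 2T-p190-B-/- 3.

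Other genes of the same machineries were read from 5 further lists, and no gene of these lists passed limma's adjusted test. Of the other DNA methylation genes 10 of 13 were tested, 2 higher and 8 lower with a median of -0.77, and 3 did not overlap. Of the other Polycomb genes 15 of 20 were tested, 6 higher and 9 lower with a median of -0.54, and 2 did not overlap. Phf1 held the middle difference of this list without 2T-WT 3, at -0.11, beside a median of -0.26 for all genes. Of the other histone methylation genes 28 of 40 were tested, 7 higher and 21 lower with a median of -0.85, and 7 did not overlap, 6 of them lower. After quantile normalization the middle pair of these differences was -0.49 (Kdm7a) and -0.39 (Kdm3b), beside a median of -0.11 for all genes. The bright Suv39h2, Ehmt1 and Kmt2d went from -1.63, -1.64 and -1.36 to -0.20, -0.22 and -0.16. Of the other acetylation genes 20 of 24 were tested, 6 higher and 14 lower with a median of -0.14, and 3 did not overlap. Of the other remodelling genes 23 of 29 were tested, 13 higher and 10 lower with a median of 0.21, and 2 did not overlap. That direction turned without 2T-p190-B-/- 3, where the middle one of the 23 differences was -0.31 (Chd8). The median of all genes was then -0.45. The medians and overlap counts with all arrays stand beside a median of -0.35 and 16.6% without overlap over all genes. At an unadjusted limma p under 0.05 the 5 lists had 1, 0, 1, 3 and 1 genes, against 1383 of all 21704 genes.

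The lower genes with the smallest p in these lists were Rcor1, a partner of Kdm1a, Brd2, a reader of acetylated histones, Men1, a subunit of a histone methyltransferase complex, and the deacetylase Hdac9. Brd2 read 2.28, 2.25 and 2.50 in 2T-WT and 0.58, 0.88 and 0.32 in 2T-p190-B-/-. The groups lay apart with little spread in either, and the difference of -1.75 ± 0.64 (limma adjusted p = 0.637) was -0.99 after normexp correction and -1.64 within slide 2. Rcor1 differed by -2.70 ± 0.83, or -1.54 after normexp correction, on spots above background on 3 arrays, Men1 by -2.33 ± 0.98, or -1.33 without 2T-WT 3, and Hdac9 by -1.84 ± 0.79, each without overlap. The higher genes were Dnmt3l, a cofactor of the de novo methyltransferases, the SWI/SNF subunit Smarcd1, the methyltransferase Kmt2a and the NuRD subunit Mbd3. Dnmt3l and Smarcd1 were above background on 0 2T-WT arrays and on all 3 2T-p190-B-/- arrays. Dnmt3l read 0.82, -2.55 and -1.90 on the latter, at least 3.35-fold higher, and Smarcd1 -3.01, -0.59 and 5.36, at least 11.7-fold higher (limma adjusted p = 0.637 for both). These bounds fell to 1.66-fold for Dnmt3l without 2T-p190-B-/- 1 and 2.23-fold for Smarcd1 without 2T-p190-B-/- 3, and after normexp correction the differences were 0.34 and 1.96. Both genes entered the tests only through the 2T-p190-B-/- arrays, where they are high, so nothing is drawn from their tests or bounds. They alone make up the 1 gene counted above for DNA methylation and for remodelling, so those counts support nothing. They are also among the 3 and 2 genes without overlap in those lists, to which the same limit applies. Kmt2a differed by 1.43 ± 0.64 without overlap, or -0.07 after normexp correction. It was above background on 1 2T-WT array and all 3 2T-p190-B-/- arrays, so it too passed the filter through the arrays where it is high. Nothing is drawn from its test or from its place as the 1 higher histone methylation gene without overlap. Mbd3 differed by 1.73 ± 0.89 with overlap, or 0.91 without 2T-p190-B-/- 1.

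Markers of other blood cells and of cycling cells varied between arrays beside these genes. The summed signal of 17 cycling genes, relative to the 75th percentile, was 19.9, 8.97 and 133 against 9.36, 12.9 and 17.3, where Mki67 on 2T-WT 3 stood out, and Mcm2, Mcm3, Aurkb, Bub1 and Rrm2 were above background on no array. Of the 11 tested, 7 were higher and 4 lower, with Mcm6 higher without overlap by 2.42 ± 0.76. The 6 tested B lymphocyte genes summed to 6.12, 5.35 and 726 against 6.396, 4.47 and 6.12, led by Pax5 over the arrays and by Cd79a on 2T-WT 3. Of them 1 was higher and 5 lower with a median of -1.44, Vpreb1 was lower without overlap by -1.45 ± 0.75, and 5 of the 6 had their highest value on 2T-WT 3. Without that array Hdac1 probe 2, Tet2 probe 1 and Men1 were at 0.31, -1.14 and -1.33. Phc3, Hdac10 and Setd1a of the further lists went from -1.46, -1.41 and -1.38 to -0.05, -0.04 and -0.12. Rcor1 and Kmt2b became more negative, from -2.70 and -2.61 to -3.25 and -3.95.

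The sum of 10 neutrophil genes was 12.7, 15.2 and 7.35 in 2T-WT and 7.40, 8.18 and 6.11 in 2T-p190-B-/-, led by Lcn2, and 2 of 8 tested were higher, with Mpo lower without overlap by -1.47 ± 0.77. That of 6 erythroid genes was 4.03, 6.30 and 1.16 against 2.57, 2.38 and 2.02, led by Hba-a1, and 3 of 4 tested were higher. For 5 T lymphocyte genes it was 77.9, 35.3 and 137 against 27.7, 27.0 and 49.98, led by Cd4, and 1 of 4 tested was higher. For 6 megakaryocyte genes it was 9.90, 23.7 and 9.78 against 9.56, 6.70 and 8.69, led by Gp1bb, which was lower without overlap by -0.80 ± 0.67, and 1 of 3 tested was higher. For 4 monocyte and macrophage genes it was 68.4, 57.5 and 152 against 44.7, 45 and 30.5, led by Csf1r, which was lower without overlap by -1.18 ± 0.71, and 2 of 3 tested were higher. Csf1r and Cd4, the latter at -1.20 ± 0.79, have a mean log2 signal between 5 and 6. All tested probes of that brightness had a median of -0.94, and their middle 50 percent, from -1.27 to -0.41, holds both genes. Whether the lower sums follow cell numbers was not tested. The HSC and sorting markers summed to 11.5, 15.9 and 10.8 against 21.8, 11.1 and 32.6, led by Mecom, whose brighter probe was higher without overlap by 2.07 ± 0.93. The other Mecom probe, above background on 1 array, differed by -2.23. Flt3 was lower without overlap by -1.10 ± 0.67 at its brighter probe, and its other probe differed by 0.48. The part of these markers in the differences of the chromatin modifier genes was not tested.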

How the data were processed

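RNA of sorted 2T HSC was measured on 6 Agilent arrays in 1 colour, 3 per genotype, and groups came from the labels. The authors deposited scanner output of Feature Extraction 10.5.1.1, in which the processed signal, the mean signal and the local background are an intensity on a linear scale, not scaled between arrays, beside 0 or 1 flags of other kinds. The authors also deposited a value table whose intensity is the processed signal divided by 1 number per array. Control spots and outlier spots were left out, and 0 spots were saturated. The main value is log2 of the processed signal minus log2 of the 75th percentile of its array, with repeated spots averaged. A probe entered the tests if 3 or more of the 6 arrays had it well above background. The tests were limma 3.58.1 (lmFit and eBayes, R 4.3.3), with Benjamini-Hochberg adjustment over all 25159 probes, and, on those same log2 values, the methods' t-test. With 3 arrays per group, the smallest p of an exact two-sided permutation test is 0.1.

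Gene names are those of the files. Through the RefSeq table of assembly GRCm38.p6, 26406 probes were matched by accession and 4594 by symbol or synonym, and 8429 kept the name in the files; this naming was an alternative. Values on every array are given for 12 genes central to HSC work, where a probe has values, and for probes with an unadjusted limma p under 0.05 or with groups that did not overlap at a 2-fold or larger difference. Cbx7, Hdac7, Tet1 probe 2 and Hdac1 probe 3 were added after their values were seen. From the further lists at most 4 genes per direction with the smallest p are named. A bound ("at least") sets the mean of the detected group against the mean, over the arrays of the other, of the higher of the probe's own value and the lowest signal well above background. Alternatives were quantile normalization, normexp with an offset of 50, no filter, detection on all 6 arrays, the authors' value table, a block for the slide, a block for the replicate number, robust variances with an intensity trend, leaving out each array, RefSeq naming and the mean over a gene's probes, and, chosen after seeing the data, outlier spots kept. The repeat, brightness and same-gene probe comparisons were also chosen after seeing the data. The members and lists were chosen with earlier results of these data known. The limma fit was tested on simulated log2 values with known changes. Precision is limited by the number of arrays.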

Additional observations from a re-analysis of the deposited data

How the results depend on the processing

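No alternative gave any probe an adjusted p under 0.05: the count was 0 in all of the settings in which it was computed, with unadjusted counts as follows. Chromatin modifier probes at an unadjusted limma p under 0.05 numbered 3, with 8 after normexp correction (14.4% of all probes) and from 0 to 4 with single arrays left out (4.25% to 9.71%). Those past the methods' threshold numbered 4, with 10 after normexp correction (11.98% of all probes) and 1 to 5 with single arrays left out (3.98% to 9.44%). The median difference of the chromatin modifier genes, -0.30, was -0.77 with the slide as a block, -0.66 with no filter, -0.43 with detection on all 6 arrays, -0.16 after quantile normalization and -0.18 in the authors' values. The median of all genes in these settings was -0.50, -0.52, -0.46, -0.11 and -0.23. With single arrays left out that of the chromatin modifier genes was -0.68 to -0.21 and that of all genes -0.45 to -0.26. Lower genes, 17 of 28, were 29 of 43 with no filter and 11 of 17 with detection on all 6 arrays, and those below the median of all genes, 14, were 24 and 8, since the filter sets how many genes enter. Genes without overlap, 5, numbered 9 after normexp correction (23.2% of all genes), 17 within slide 2 (46.6%) and 5 to 13 with single arrays left out (23.6% to 33.3%). With the replicate number as a block, 13 genes had every same-numbered pair in 1 direction (36.5% of all genes). Centred arrays of the same number correlated at 0.00944, 0.0159 and 0.0865 over probes, and not every array was most like its own number, and the labels pair no isolation with a number. Over the 9 settings of quantile normalization, normexp correction, the slide block and single arrays left out, 122 of 135 recomputed differences of the 15 named probes kept their direction and 13 did not. For named probes without overlap, the slide block and leaving out an array could not turn the direction. Part of that count was thus fixed in advance, no share over all probes stands beside it, and nothing is drawn from it. After quantile normalization Dnmt3a was at 0.094 and Crebbp at 0.12, after normexp correction Dnmt3b was at -0.30 and Smarca4 at -0.0058, and Kdm1a was at 0.082 in the authors' values, which raise a difference by 0.12 in the median. With single arrays left out Dnmt1 ranged from -0.69 to 1.25, Dnmt3a from -0.70 to 0.24, Dnmt3b from -0.13 to 0.75 and Kdm1a from -1.27 to 0.65. Of these shifts the cause was not tested. Signal near background limits what the dim probes can show: Dnmt3a and Tet2 were detected on 3 of 6 arrays, and Tet1 probe 3 and Smarca4 probe 2 on 4.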
